A study of Homo sapiens with 42 samples.

Results

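Messenger RNA of 10 genes for neutrophil granule proteins was followed across the drug-treated leukaemia lines OCI-AML3 and NOMO1: MPO, ELANE, PRTN3, AZU1, CTSG, LYZ, CAMP, DEFA1B, DEFA3 and CEACAM8. The genes were chosen by symbol, for their known place in the granules, and each was found as 1 of the 58869 genes used from the deposited count table. OCI-AML3 is a human acute myeloid leukaemia cell line labelled NPM1c+, that is, with the mutant NPM1 protein held in the cytoplasm. NOMO1 is a human acute myeloid leukaemia cell line labelled KMT2A-r, that is, with a rearranged KMT2A gene. Each genotype is represented by 1 line, so line and genotype cannot be told apart. Each line was cultured with DMSO for 3 or 6 days, with 100 nM of the menin inhibitor VTP-50469 for 3 or 6 days, with both drugs at 100 nM each for 3 or 6 days (the combination), or with 100 nM of the MEK inhibitor selumetinib alone. Polyadenylated RNA was sequenced from 3 libraries in each of 14 groups, 42 in all. No label tells whether libraries of 1 group are separate cultures, so each p-value measures only the spread between these libraries, which may be technical. The time of selumetinib alone is uncertain, because the sample descriptions say day 1 while titles of the same group say day 1 or day 3, and in the table the OCI-AML3 values also stand under column names that say day 6. No DMSO library is labelled day 1, and selumetinib was compared with DMSO at day 3.

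Neutrophil granules are filled in sequence as a myeloid progenitor matures. Azurophil granules form first, at the promyelocyte stage, and hold myeloperoxidase (MPO), the serine proteases neutrophil elastase (ELANE), proteinase 3 (PRTN3) and cathepsin G (CTSG), the inactive protease relative azurocidin (AZU1), the alpha defensins and lysozyme (LYZ). Specific granules form later, at the myelocyte stage, and hold cathelicidin (CAMP) and the adhesion glycoprotein CEACAM8, with more lysozyme. C/EBP factors, PU.1 and MYB are known regulators of azurophil genes, and C/EBP-epsilon of specific granule genes. Menin ties KMT2A to target genes such as MEIS1, and MEK passes signals from RAS to ERK, whose feedback target is DUSP6.

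Libraries held 15561248 to 24262960 counts in OCI-AML3 and 15264862 to 29168628 in NOMO1. As a check of the drugs, MEIS1 changed by -6.76 ± 0.23 (log2 fold change ± SE) in NOMO1 and -0.37 ± 0.12 in OCI-AML3 at day 6 of VTP-50469, and DUSP6 by -3.40 ± 0.17 and -1.07 ± 0.33 with selumetinib. At day 3 in OCI-AML3 MEIS1 did not pass with VTP-50469 (-0.19, adjusted p = 0.403, edgeR's quasi-likelihood test) or with the combination (-0.015, adjusted p = 0.934). At day 6 in NOMO1 DUSP6 rose by 2.34 ± 0.14 with VTP-50469. With the combination it was at -0.30 ± 0.14 (adjusted p = 0.0755) against DMSO and -2.64 ± 0.14 against VTP-50469. Replicate 1 of NOMO1 VTP-50469 day 3 stood apart, with a chi-square per gene of 67.6 and 73.0 against the other libraries of its group and 6.42 between those (1 is counting noise). Replicate 2 of OCI-AML3 VTP-50469 day 3 stood apart likewise, with 32.1 and 30.9 against 4.34. Mitochondrially encoded genes took 17.8% ± 0.198 (SD, n = 3) of the counts in NOMO1 DMSO day 3 and 3.17% ± 0.481 in DMSO day 6. Its part in the day 3 results of NOMO1 was not tested, and values against DMSO day 6 are given beside those results. Of the 6 myeloid markers PTPRC, CD33, SPI1, CD34, KIT and CD38, 4 or 5 averaged above 5 CPM (counts scaled to a common library total) in every group; KIT was at 0 in most groups of OCI-AML3 and CD34 in most of NOMO1.

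AZU1, PRTN3 and ELANE lie close together on chromosome 19, at chr19:825097-832018, chr19:840960-848175 and chr19:851014-856247, all on the plus strand (GRCh38, GENCODE 29). CTSG lies at chr14:24573522-24576260 on the minus strand, MPO at chr17:58269856-58280935 on the minus strand, LYZ at chr12:69348341-69354234 on the plus strand, CAMP at chr3:48223347-48225491 on the plus strand and CEACAM8 at chr19:42580241-42595055 on the minus strand. By whole gene spans, introns included, CEACAM8 is overlapped over 14815 bases by LIPE-AS1 on the opposite strand and LYZ over 733 bases by AC020656.1. With an unstranded kit, reads from exon bases that such a pair shares cannot be told apart. Whether these pairs share exon bases was not examined. DEFA1B and DEFA3 are near-identical copies, as is DEFA1, so reads may be split between them and their separate values are uncertain.

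The promoters of AZU1, PRTN3 and CTSG are shown because these related genes responded differently to the drugs. The promoter set used held no entry for ELANE, MPO, LYZ, DEFA1B or DEFA3, and its entries for CAMP and CEACAM8 are not shown. Each sequence runs 5′ to 3′ from 250 to 51 bases before the gene's start in RefSeq (GRCh38.p14): chr19:827587-827786 on the plus strand for AZU1, chr19:840749-840948 on the plus strand for PRTN3 and chr14:24576301-24576500 on the minus strand for CTSG. The AZU1 window lies inside the GENCODE 29 span of AZU1, which begins further upstream. Capitals mark matches on either strand to GAGGAA (PU.1 core), AACNG (MYB core) and TTGCNNAA (a full C/EBP site).

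AZU1: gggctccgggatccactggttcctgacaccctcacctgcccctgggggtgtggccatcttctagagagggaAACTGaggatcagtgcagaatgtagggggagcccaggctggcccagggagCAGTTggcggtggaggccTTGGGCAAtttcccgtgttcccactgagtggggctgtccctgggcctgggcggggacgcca

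PRTN3: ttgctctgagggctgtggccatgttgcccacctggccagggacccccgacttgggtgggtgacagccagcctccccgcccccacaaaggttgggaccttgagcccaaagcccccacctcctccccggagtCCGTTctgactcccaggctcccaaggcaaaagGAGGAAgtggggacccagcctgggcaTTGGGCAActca

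CTSG: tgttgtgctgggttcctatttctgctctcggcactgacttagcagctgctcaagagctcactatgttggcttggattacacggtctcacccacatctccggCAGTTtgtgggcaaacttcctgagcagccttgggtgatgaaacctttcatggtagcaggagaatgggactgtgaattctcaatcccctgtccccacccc

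The PU.1 core had 1 match in PRTN3 and 0 in AZU1 and CTSG. The MYB core had 2 matches in AZU1 and 1 each in PRTN3 and CTSG, and the C/EBP site had 1 each in AZU1 and PRTN3 and 0 in CTSG. Over all 35116 promoters of that table, windows of the same 200 bases hold the PU.1 core in 19.1%, the MYB core in 62.8% and the C/EBP site in 7.59%. The matches describe letters only, and no binding was measured.

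Untreated NOMO1 cells carried far more MPO, PRTN3 and LYZ mRNA than OCI-AML3 cells, whereas CTSG was higher in OCI-AML3. Levels of different genes are compared here in CPM per kilobase of exon. In OCI-AML3 DMSO day 6 the order was CTSG (1081 ± 46.7, SD, n = 3), ELANE (579 ± 19.5), AZU1 (217 ± 20.3), PRTN3 (172 ± 11.9) and LYZ (61.7 ± 3.82). CAMP (0.792 ± 0.0182) and MPO (0.519 ± 0.0782) followed at few counts, with at most 27 counts of CAMP and 51 of MPO in any OCI-AML3 library. DEFA1B, DEFA3 and CEACAM8 had 0 counts in all 21 OCI-AML3 libraries, and no test was possible for them there.

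In NOMO1 DMSO day 6 the order was PRTN3 (1508 ± 69.1 CPM per kilobase), MPO (1332 ± 57.9), LYZ (850.2 ± 10.6), ELANE (540.0 ± 6.16), CTSG (366 ± 4.75), AZU1 (314 ± 9.51) and CAMP (5.06 ± 0.542). CEACAM8 (0.267 ± 0.0562) and DEFA3 (0.240 ± 0.263) were lowest and did not differ beyond their spread, and DEFA1B had 0 counts. Among 58595 genes ranked by this level in NOMO1, PRTN3 had rank 21 and MPO rank 23. CTSG had rank 29 and MPO rank 12907 in OCI-AML3.

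**Figure D1:**
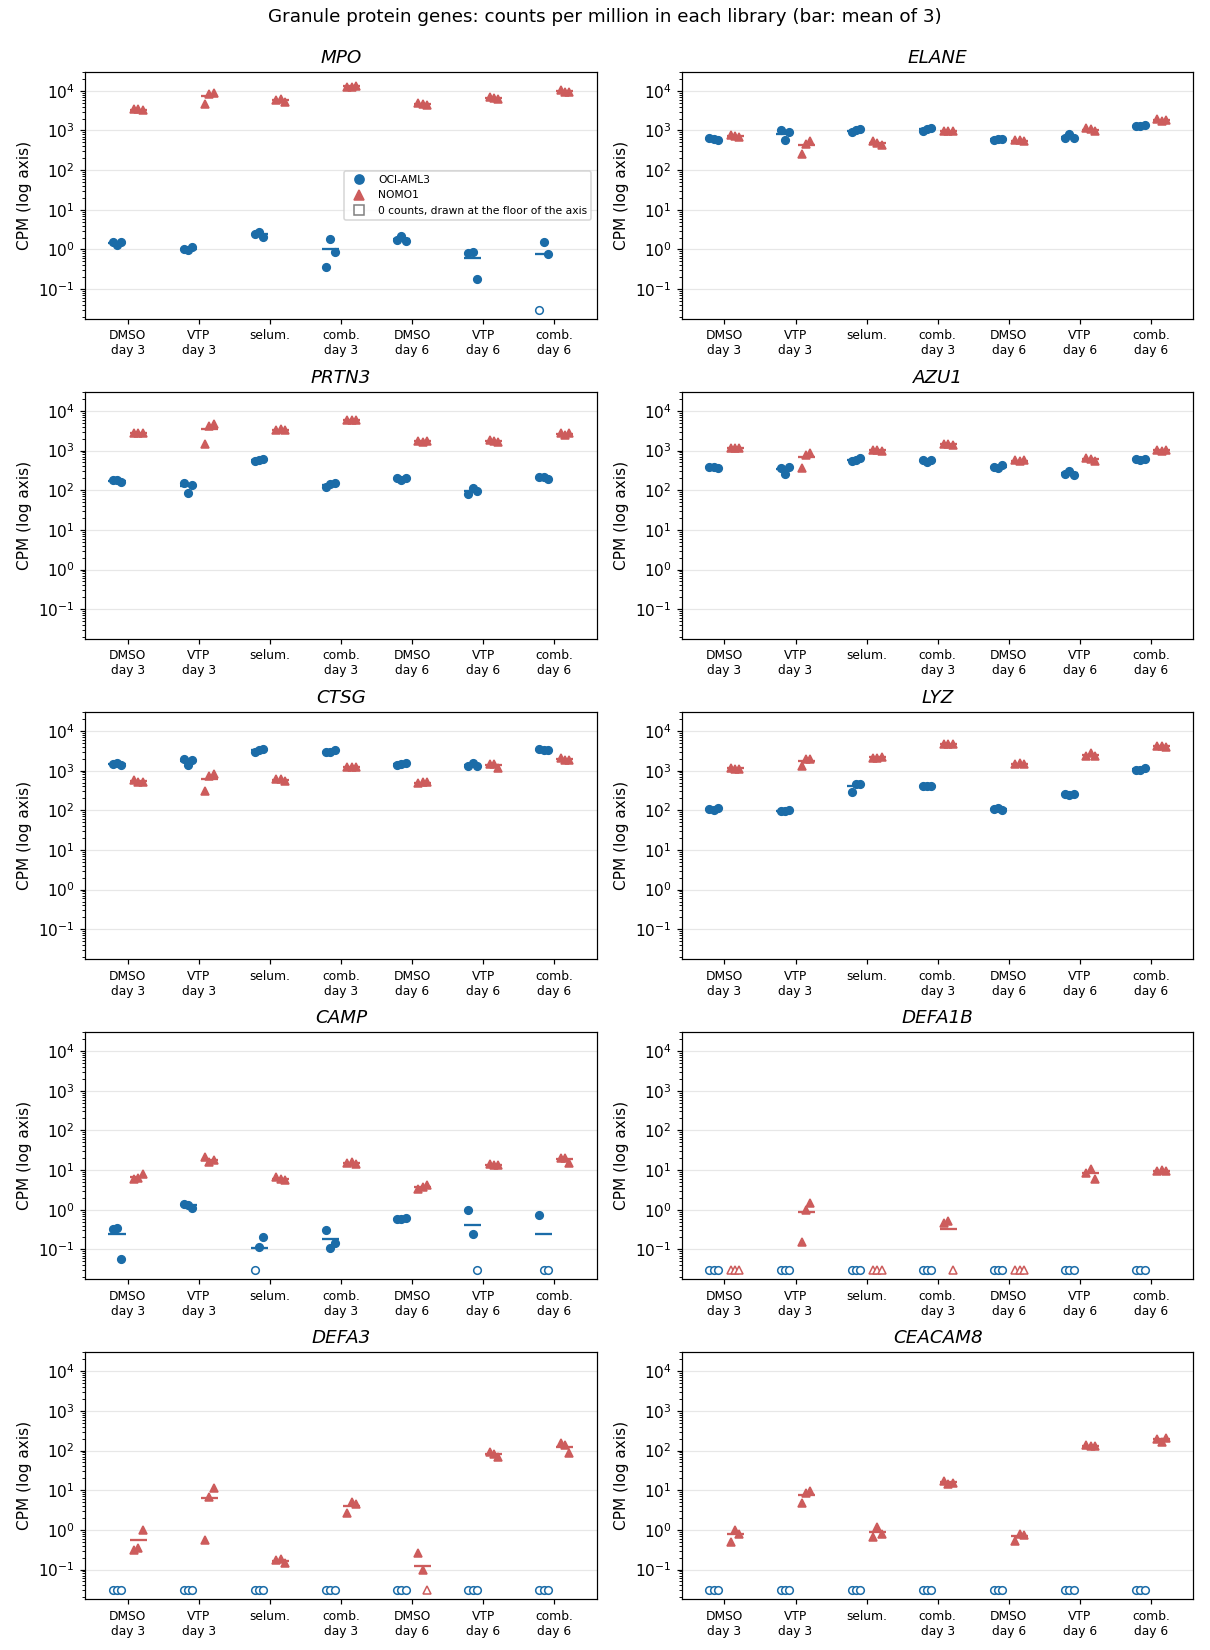
Level of each of the 10 genes in every library (CPM, log axis), by treatment group. Circles are OCI-AML3 and triangles NOMO1 libraries, 3 per group, short bars are group means, and open symbols at the floor of the axis are libraries with 0 counts. MPO stood at 3224 CPM or more in every NOMO1 library and had at most 51 counts in OCI-AML3, and CEACAM8, DEFA1B and DEFA3 were at 0 in OCI-AML3.

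In 1 fit of both lines at DMSO day 6, 6 of the 10 genes were higher in NOMO1 and 1 was lower (5 and 1 of the 7 without DEFA1B, DEFA3 and CEACAM8), where 61.3% of the 18707 genes tested differed in either direction (edgeR's quasi-likelihood test, Benjamini-Hochberg adjusted p under 0.05, the threshold of every call below). On the CPM scale of that fit MPO stood at 5328 ± 219.6 in NOMO1 and 1.59 ± 0.246 in OCI-AML3, a log2 difference of 11.71 ± 0.31, adjusted p = 3.4e-24. LYZ was higher in NOMO1 by 4.17 ± 0.12, PRTN3 by 3.52 ± 0.24, CAMP by 3.05 ± 0.45 and AZU1 by 0.92 ± 0.17. CTSG differed the other way (-1.18 ± 0.19, adjusted p = 2.14e-06), and ELANE did not pass (0.28 ± 0.17, adjusted p = 0.151). CEACAM8 was at least 15.6-fold higher in NOMO1, against a floor of 3 counts over the OCI-AML3 group.

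In NOMO1, 6 days of VTP-50469 raised CEACAM8 and DEFA3 from almost nothing and raised CAMP, CTSG, ELANE, LYZ and MPO by smaller factors, while PRTN3 and AZU1 did not pass the test. CEACAM8, the adhesion protein of the specific granule membrane, stood at 0.520, 0.794 and 0.730 CPM in DMSO day 6 and at 140.4, 127 and 130.0 CPM with VTP-50469. The groups lay far apart, and the log2 fold change was 7.57 ± 0.22, adjusted p = 2.85e-17. DEFA3, an antimicrobial alpha defensin, stood at 0.260, 0.0993 and 0 CPM in DMSO and at 91.6, 83.1 and 67.8 CPM with VTP-50469, a log2 fold change of 9.41 ± 0.85, adjusted p = 2.12e-07 that rests on 6, 3 and 0 DMSO counts. DEFA1B went from 0 counts to 240, 290 and 124 counts, at least 219.5-fold higher against a floor of 3 counts over the group. DEFA1B, DEFA3 and CEACAM8 passed the filter on low counts only through the groups where they were high, so counts without them are given as well.

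CTSG stood at 495, 508 and 504 CPM in NOMO1 DMSO day 6 and at 1476, 1438 and 1195 CPM after VTP-50469. All treated libraries were above all controls, and CTSG rose by 1.45 ± 0.24, adjusted p = 0.000114. ELANE went from 558, 559 and 548 CPM to 1133, 1065 and 947 CPM without overlap and rose by 0.92 ± 0.18, adjusted p = 0.000368. CAMP, the precursor of an antimicrobial peptide that proteinase 3 releases, went from 3.38, 3.74 and 4.19 CPM to 14.5, 13.4 and 13.3 CPM and rose by 1.86 ± 0.16, adjusted p = 2.08e-10. LYZ, which cleaves bacterial cell walls, rose by 0.74 ± 0.10, adjusted p = 3.38e-07, from 1484 to 1520.2 CPM up to 2379.8 to 2731 CPM. MPO, which makes hypochlorous acid, rose by 0.50 ± 0.14, adjusted p = 0.0066, from 4509 to 4915 CPM up to 6190.1 to 7086 CPM. Ranked by CPM per kilobase, CEACAM8 moved from 14267 to 761, DEFA3 from 14568 to 243 and CAMP from 6114 to 2199, so these 3 genes stayed below CTSG, at rank 42.

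PRTN3 stood at 1784, 1637 and 1763 CPM in NOMO1 DMSO day 6 and at 1846, 1784 and 1656 CPM with VTP-50469. The groups overlapped (0.03 ± 0.26, adjusted p = 0.943). AZU1 was at 0.12 ± 0.20, adjusted p = 0.667. Of the 10 genes 8 were called higher and 0 lower, where 48.8% of the 16561 genes tested were called in either direction; of the 7 genes other than DEFA1B, DEFA3 and CEACAM8, 5 were called higher and 0 lower. The median log2 fold change was 1.18 over the 10, 0.74 over those 7 and -0.01 over all genes tested.

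After 3 days of VTP-50469 the NOMO1 pattern was another, with MPO, LYZ, CAMP, CEACAM8 and the defensins higher and ELANE and AZU1 lower than in DMSO day 3. MPO stood at 3394, 3419 and 3224 CPM in DMSO day 3 and at 4677, 8129.7 and 8733 CPM with the drug, above every control (1.10 ± 0.14, adjusted p = 2.79e-06). ELANE stood at 783, 709 and 703 CPM in DMSO and at 262, 454 and 551 CPM with the drug, below every control (-0.79 ± 0.18, adjusted p = 0.00122). AZU1 went from 1158, 1144 and 1173 CPM to 362, 769 and 883 CPM (-0.79 ± 0.20, adjusted p = 0.00388). In each of these genes the lowest treated library was replicate 1, the one that stood apart. CEACAM8 rose by 3.36 ± 0.26, DEFA3 by 3.60 ± 0.84, CAMP by 1.42 ± 0.16 and LYZ by 0.59 ± 0.10, and DEFA1B was at least 17.7-fold higher. PRTN3 (0.30 ± 0.26, adjusted p = 0.356) and CTSG (0.20 ± 0.24, adjusted p = 0.505) did not pass. DEFA3 stood at 0.316, 0.347 and 0.967 CPM in DMSO and 0.550, 6.91 and 11.6 CPM with the drug, where replicate 1 lay inside the DMSO range, so these groups overlapped. Of the 10 genes 6 were called higher and 2 lower, where 52.4% of all genes were called, and of the 7 without DEFA1B, DEFA3 and CEACAM8 3 higher and 2 lower.

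Without replicate 1, PRTN3 (0.67, adjusted p = 4.28e-13) and CTSG (0.53, adjusted p = 1.61e-05) were also called, so that all 10 genes were, and AZU1 was at -0.49. Against DMSO day 6 in place of DMSO day 3, AZU1 turned to 0.26, adjusted p = 0.388, ELANE (-0.39, adjusted p = 0.114) and LYZ (0.19, adjusted p = 0.148) lost their calls, and PRTN3 gained one (0.99, adjusted p = 0.0116).

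The DMSO groups of NOMO1 themselves differed between days, with 51% of all genes called. Among the 10 genes, and likewise among the 7 without DEFA1B, DEFA3 and CEACAM8, MPO (0.49 ± 0.14) and LYZ (0.40 ± 0.10) were higher at day 6, and AZU1 (-1.05 ± 0.20), CAMP (-0.85 ± 0.17) and PRTN3 (-0.68 ± 0.26) were lower. AZU1 stood at 568, 541 and 573 CPM in DMSO day 6, below every day 3 library. The call of PRTN3 (adjusted p = 0.042) was lost in each of the 6 fits that left out 1 library. Its day 6 libraries (1784, 1637 and 1763 CPM) nevertheless lay below every day 3 library (2819, 2753 and 2756 CPM). Over the other alternatives its log2 fold change was -0.75 to -0.35. In OCI-AML3 the same comparison called 0 of the 16384 genes tested by edgeR's quasi-likelihood test (0%), 1 by DESeq2, and 174 at an unadjusted p under 0.05. None of the 7 genes tested there passed, from -0.02 ± 0.14 for ELANE to 0.17 ± 0.16 for PRTN3 among the 5 with more than 100 CPM.

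Selumetinib alone raised LYZ and MPO in NOMO1 and lowered ELANE. LYZ stood at 1199, 1114 and 1096 CPM in DMSO day 3 and at 2123, 2139.6 and 2252 CPM with selumetinib, well apart (0.93 ± 0.10, adjusted p = 5.26e-09). MPO went from 3224 to 3419 CPM up to 5314 to 6063 CPM (0.77 ± 0.14, adjusted p = 0.000152). ELANE went from 703 to 783 CPM down to 433 to 557 CPM (-0.57 ± 0.18, adjusted p = 0.0124). CEACAM8, at 0.675, 1.21 and 0.770 CPM, overlapped with DMSO, and DEFA1B stayed at 0 counts. Thus 2 of the 10 genes were called higher and 1 lower, where 54.1% of all genes were called, and 2 and 1 of the 7 without DEFA1B, DEFA3 and CEACAM8. Against DMSO day 6 the calls of MPO (0.28, adjusted p = 0.154) and ELANE (-0.17, adjusted p = 0.518) were lost, LYZ kept its call at 0.53 and PRTN3 was called (0.97, adjusted p = 0.0107). AZU1, at -0.20 ± 0.20 against day 3, then became 0.85, adjusted p = 0.00436, and CAMP, at -0.16 ± 0.16, became 0.70, adjusted p = 0.00199.

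**Figure D2:**
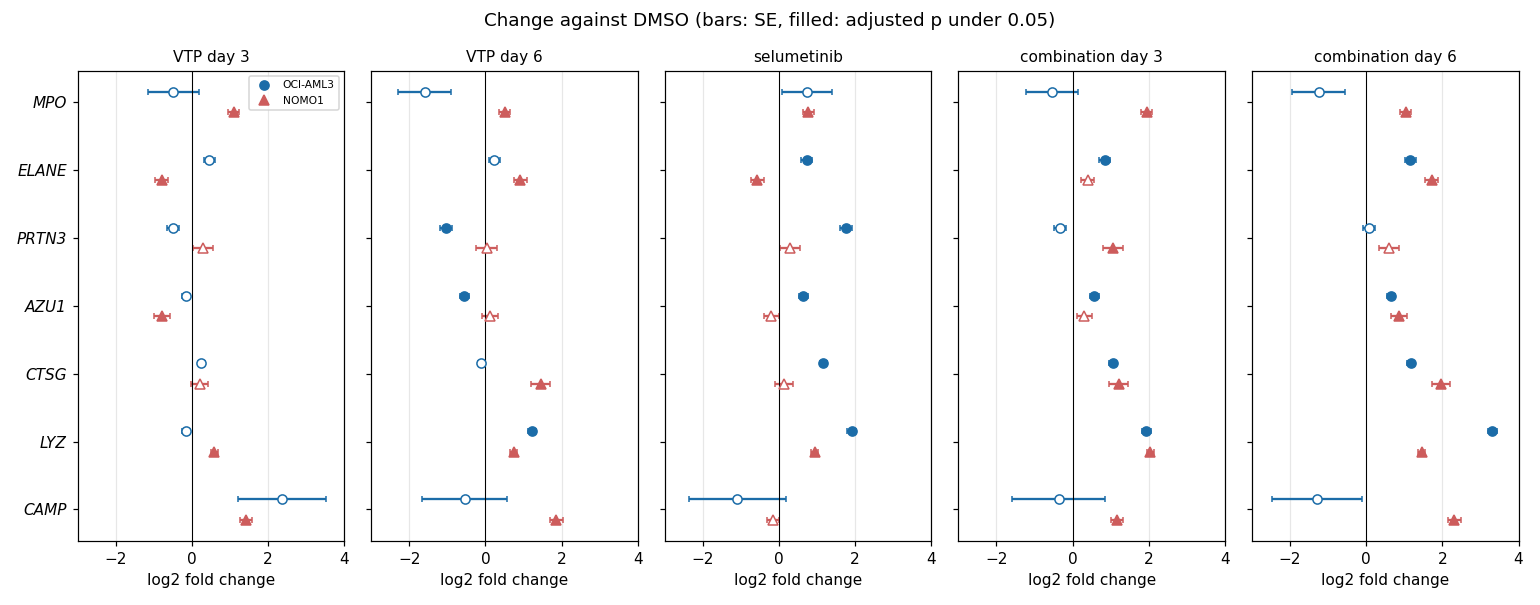
Log2 fold change against DMSO of the 7 genes tested in both lines, with bars for the SE, in a panel for each treatment and day. Circles are OCI-AML3 and triangles NOMO1, filled where the adjusted p of edgeR's quasi-likelihood test was under 0.05. PRTN3 in OCI-AML3 lies at -1.04 with VTP-50469 at day 6 and at 1.75 with selumetinib, and LYZ in OCI-AML3 reaches 3.31 with the combination at day 6.

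With both drugs for 6 days NOMO1 carried its highest levels of ELANE, CTSG, CEACAM8 and DEFA3. CEACAM8 stood at 197, 168 and 204 CPM (8.09 ± 0.22, adjusted p = 6.19e-18 against DMSO day 6). DEFA3 stood at 153, 140.0 and 85.0 CPM (10.05 ± 0.85), and DEFA1B was at least 256-fold higher. ELANE stood at 1975, 1713 and 1786 CPM, above every library of the other 6 NOMO1 groups, and rose by 1.72 ± 0.18, adjusted p = 3.64e-07. CTSG stood at 2137, 1879 and 1864 CPM and rose by 1.96 ± 0.24, adjusted p = 4.33e-06. CAMP rose by 2.32 ± 0.16, LYZ by 1.46 ± 0.10, MPO by 1.04 ± 0.14 and AZU1 by 0.86 ± 0.20. PRTN3 stood at 2733, 2400.4 and 2694 CPM, above all DMSO day 6 libraries, and did not pass (0.60 ± 0.26, adjusted p = 0.0692), although DESeq2 called it (0.62, adjusted p = 0.0111). Thus 9 of the 10 genes were called higher and 0 lower, where 55.4% of all genes were called; outside DEFA1B, DEFA3 and CEACAM8 it was 6 of 7.

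At day 3 of the combination NOMO1 held its highest MPO, PRTN3, LYZ and AZU1. MPO stood at 12786, 12798 and 13002 CPM (1.94 ± 0.15, adjusted p = 9.25e-10 against DMSO day 3). PRTN3 stood at 5748, 5766 and 5911 CPM, above every other NOMO1 library (1.07 ± 0.27, adjusted p = 0.00277). LYZ stood at 4621, 4680.0 and 4717 CPM (2.04 ± 0.10, adjusted p = 1.73e-15). The difference between days 3 and 6 of the combination was not tested. CTSG rose by 1.21 ± 0.24, CAMP by 1.16 ± 0.16, CEACAM8 by 4.37 ± 0.24 and DEFA3 by 2.96 ± 0.89. DEFA1B, with 11, 14 and 0 counts, was called (adjusted p = 0.0235) at a bound of at least 6.82-fold, a call lost in 5 of 6 fits that left out 1 library. ELANE (0.40 ± 0.18, adjusted p = 0.0641) and AZU1 (0.31 ± 0.20, adjusted p = 0.205) did not pass. In all, 8 genes were called higher and 0 lower, where 58.7% of all genes were called (without DEFA1B, DEFA3 and CEACAM8, 5 of 7 higher and 0 lower). Against DMSO day 6 all 10 were called higher, with ELANE at 0.79 and AZU1 at 1.35. ELANE (942, 972 and 975 CPM) and AZU1 (1436, 1442 and 1421 CPM) also lay above every DMSO day 3 library. A fit of only the groups compared called ELANE (0.36, adjusted p = 1.68e-05) and AZU1 (0.27, adjusted p = 3.72e-05, edgeR's quasi-likelihood test) against DMSO day 3. Library totals called both as well, and DESeq2 called ELANE but not AZU1.

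Set against VTP-50469 alone, the combination at day 3 raised 7 of the 10 genes in NOMO1 and lowered 0, where 35.2% of all genes were called (without DEFA1B, DEFA3 and CEACAM8, 6 of 7 and 0). The rises were 1.45 ± 0.10 for LYZ, 1.19 ± 0.18 for ELANE, 1.09 ± 0.20 for AZU1, 1.01 ± 0.17 for CEACAM8, 1.01 ± 0.24 for CTSG, 0.84 ± 0.14 for MPO and 0.76 ± 0.26 for PRTN3. Without VTP-50469 replicate 1 these 7 remained called, with PRTN3 at 0.40 and ELANE at 0.94, and DEFA3 (-1.16, adjusted p = 0.0189) and DEFA1B (-1.87, adjusted p = 0.00998) were called lower. The call of PRTN3 (adjusted p = 0.0355) was lost without any 1 of the 3 combination libraries.

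At day 6 the step from VTP-50469 to the combination raised ELANE (0.80 ± 0.18), AZU1 (0.74 ± 0.20), LYZ (0.72 ± 0.10), MPO (0.54 ± 0.14), CEACAM8 (0.52 ± 0.14) and CAMP (0.45 ± 0.15). PRTN3 (0.57 ± 0.26, adjusted p = 0.132), CTSG (0.52 ± 0.24, adjusted p = 0.124) and both defensins did not pass. That makes 6 genes of 10 called higher and 0 lower, where 27.6% of all genes were called, and 5 and 0 of the 7 without DEFA1B, DEFA3 and CEACAM8. The call of CAMP (adjusted p = 0.0211) was lost in 4 of 6 fits that left out 1 library. PRTN3 and CTSG stood higher in every combination library than in any VTP-50469 library of day 6. A fit of only the groups compared called PRTN3 (0.57, adjusted p = 2.29e-08) and CTSG (0.52, adjusted p = 3.41e-05, edgeR's quasi-likelihood test). DESeq2 also called PRTN3 (0.56, adjusted p = 0.0427).

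The interaction at day 3 asks whether the combination differed from the sum of the log2 effects of each drug alone. In NOMO1 it was positive for ELANE (1.75 ± 0.25, adjusted p = 3.56e-05), AZU1 (1.30 ± 0.29, adjusted p = 0.00204) and LYZ (0.52 ± 0.14, adjusted p = 0.00363), so 3 of the 10 genes were called higher and 0 lower (3 and 0 of the 7 without DEFA1B, DEFA3 and CEACAM8), where 37% of all genes were called. ELANE lay below every DMSO day 3 library with each drug alone and above every one with both together. With DMSO day 6 as the control ELANE (1.36) and LYZ (0.92) kept their calls, AZU1 lost its own (0.25, adjusted p = 0.656) and CAMP was called (-0.96, adjusted p = 0.00439). The uncertain time of selumetinib alone applies to each interaction.

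In OCI-AML3, 6 days of VTP-50469 raised LYZ and lowered PRTN3 and AZU1. LYZ stood at 106, 117 and 104 CPM in DMSO day 6 and at 257, 247 and 259.6 CPM with the drug, without overlap (1.23 ± 0.11, adjusted p = 2.85e-09). PRTN3 went from 202, 181 and 206 CPM to 81.5, 113 and 93.7 CPM (-1.04 ± 0.16, adjusted p = 5.41e-05). AZU1 went from 383, 354 and 426 CPM to 254, 303 and 236 CPM (-0.55 ± 0.11, adjusted p = 0.000333). Both of these chromosome 19 genes were below every control library. ELANE, the next of the cluster, was at 0.24 ± 0.14, adjusted p = 0.235 and CTSG at -0.11 ± 0.09, adjusted p = 0.424. So 1 gene of the 7 tested was called higher and 2 lower, where 34.7% of all genes were called, with a median of -0.54 over the 7 and of 0.01 over all genes. The median of the 7 is the value of CAMP (-0.54 ± 1.12), at 17, 4 and 0 counts with the drug, and so says little. MPO (-1.60 ± 0.70, adjusted p = 0.0812) rests on 14, 14 and 4 counts. It did not pass, although DESeq2 called it (-1.62, adjusted p = 0.0388).

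After 3 days of VTP-50469 0 of the 7 genes were called in OCI-AML3 by edgeR's quasi-likelihood test and 2 by DESeq2, where 10.9% of all genes were called by the former. ELANE stood at 1007, 574 and 896 CPM against 649, 598 and 565 CPM in DMSO (0.45 ± 0.14, adjusted p = 0.0527), and its replicate 2, the library that stood apart, lay within the DMSO range. PRTN3 stood at 149, 85.2 and 138 CPM, below the DMSO libraries at 181, 181 and 162 CPM (-0.49 ± 0.16, adjusted p = 0.0565). CAMP had 27, 27 and 22 counts against 6, 7 and 1 in DMSO and did not pass (2.37 ± 1.15, adjusted p = 0.228). A fit of only the groups compared called CAMP (2.36, adjusted p = 0.0194, edgeR's quasi-likelihood test). Without replicate 2 ELANE (0.66, adjusted p = 1.78e-06) and CTSG (0.39, adjusted p = 0.000441) were called, and the number of all genes called went from 1788 to 980.

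Selumetinib alone raised 5 of the 7 genes in OCI-AML3 and lowered 0, where 27.4% of all genes were called. LYZ stood at 106, 103 and 112 CPM in DMSO day 3 and at 292, 459.9 and 449.9 CPM with selumetinib (1.91 ± 0.11, adjusted p = 6.5e-12). PRTN3 went from 181, 181 and 162 CPM to 561, 583 and 617 CPM, above every other OCI-AML3 library (1.75 ± 0.16, adjusted p = 2.33e-07). CTSG went from 1456, 1528 and 1383 CPM to 2904, 3288 and 3565 CPM (1.16 ± 0.09, adjusted p = 1.97e-10). ELANE (0.72 ± 0.14) and AZU1 (0.64 ± 0.11) rose less, also without overlap. MPO (0.75 ± 0.66) rests on 26 to 51 counts and did not pass.

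Both drugs together raised LYZ, CTSG, ELANE and AZU1 in OCI-AML3, and PRTN3 did not pass the test. At day 6 LYZ stood at 1050.5, 1014 and 1167 CPM against 106, 117 and 104 CPM in DMSO (3.31 ± 0.12, adjusted p = 9.38e-17), and by CPM per kilobase it went from rank 629 to rank 49. CTSG stood at 3457, 3297 and 3270.0 CPM against 1427, 1475 and 1554 CPM (1.17 ± 0.09, adjusted p = 2.16e-11). ELANE stood at 1292, 1306 and 1385 CPM against 573, 609.6 and 604 CPM (1.16 ± 0.15, adjusted p = 2.42e-06). These groups did not overlap. AZU1 rose by 0.65 ± 0.11, adjusted p = 3.07e-05. PRTN3, at 218, 210.0 and 189 CPM, overlapped with its controls (0.06 ± 0.16, adjusted p = 0.769). This is 4 of 7 genes called higher and 0 lower, where 49.6% of all genes were called. Mitochondrially encoded counts took 12.3% ± 2.26 in this group and 3.24% ± 0.665 in DMSO day 6. Leaving these genes out of the fit changed no call of the 7 genes here, and any other part in the result was not tested.

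At day 3 the combination in OCI-AML3 raised LYZ by 1.94 ± 0.11, CTSG by 1.05 ± 0.09, ELANE by 0.84 ± 0.14 and AZU1 by 0.57 ± 0.11, 4 of 7 with 0 lower, where 48.1% of all genes were called. PRTN3 stood at 121, 145 and 151 CPM, below the DMSO day 3 libraries, and did not pass (-0.32 ± 0.16, adjusted p = 0.101).

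Compared with VTP-50469 alone, the combination at day 6 in OCI-AML3 raised LYZ by 2.08 ± 0.11, CTSG by 1.27 ± 0.09, AZU1 by 1.20 ± 0.11, PRTN3 by 1.10 ± 0.16 and ELANE by 0.92 ± 0.14. That is 5 of the 7 tested and 0 lower, where 41.3% of all genes were called. At day 3 it raised LYZ (2.08 ± 0.11), CTSG (0.80 ± 0.09), AZU1 (0.74 ± 0.11) and ELANE (0.39 ± 0.14), 4 of 7 where 42.2% of all genes were called. The day 3 call of ELANE (adjusted p = 0.0362) was lost without VTP-50469 replicate 2 (0.19, adjusted p = 0.0873) and without combination replicate 2 or 3. PRTN3 did not pass at day 3 (0.17 ± 0.16, adjusted p = 0.44).

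PRTN3 was the gene with an interaction in OCI-AML3, at -1.59 ± 0.22, adjusted p = 0.000192, so that 0 genes were called higher and 1 lower, where 8.94% of all genes were called. Its levels were 162 to 181 CPM in DMSO day 3, 85.2 to 149 CPM with VTP-50469, 561 to 617 CPM with selumetinib and 121 to 151 CPM with both. Only the selumetinib group lay above DMSO. AZU1, its neighbour, was at 0.10 ± 0.16, adjusted p = 0.83. Without VTP-50469 replicate 2, ELANE and CTSG were called lower as well, 3 genes in all.

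**Figure D3:**
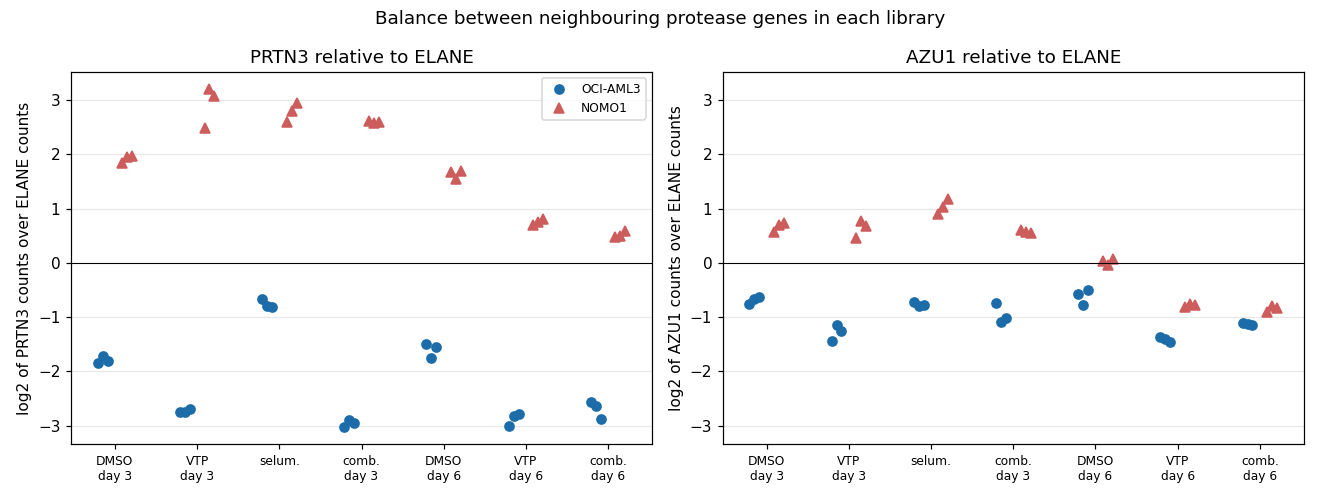
Log2 ratio of PRTN3 counts (left) and of AZU1 counts (right) to ELANE counts in every library, by treatment group. Circles are OCI-AML3 and triangles NOMO1 libraries, 3 per group. The ratio of PRTN3 to ELANE lies between -3.03 and -0.67 in OCI-AML3 and between 0.47 and 3.21 in NOMO1.

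PRTN3 and ELANE, neighbours that encode proteases of the same granule, did not keep a fixed ratio of counts. This log2 ratio does not depend on library scaling, but it is no ratio of molecules, since the genes differ in length. In OCI-AML3 it was -1.79 ± 0.06 (SD, n = 3) in DMSO day 3, -2.73 ± 0.03 with VTP-50469, -0.76 ± 0.08 with selumetinib and -2.96 ± 0.07 with both. The libraries of these 4 groups did not overlap. In NOMO1 it was 1.93 ± 0.07 in DMSO day 3 and higher in every library with VTP-50469 (2.92 ± 0.38), selumetinib (2.79 ± 0.18) or both (2.59 ± 0.02). At day 6 it went the other way, from 1.64 ± 0.08 in DMSO to 0.75 ± 0.05 with VTP-50469 and 0.52 ± 0.07 with both drugs. As a share of the counts of both genes, PRTN3 took 74.5% to 76.3% in DMSO day 6 and 58.1% to 60.1% with both drugs. The ratio of PRTN3 to AZU1, its other neighbour, differed less at day 6 in NOMO1, from 1.62 ± 0.03 in DMSO to 1.35 ± 0.07 with both drugs. Of the counts of DEFA1B and DEFA3 together, DEFA1B took 5.83% to 21.4% in the NOMO1 libraries that held both.

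The drug effects were compared between lines as a difference of differences, NOMO1 minus OCI-AML3, in 1 fit of all 42 libraries. For VTP-50469 at day 6 it was positive for CAMP (2.54 ± 0.72), MPO (2.23 ± 0.56), CTSG (1.62 ± 0.26), PRTN3 (1.13 ± 0.32), ELANE (0.75 ± 0.24) and AZU1 (0.74 ± 0.24) and negative for LYZ (-0.42 ± 0.15). That is 6 genes called higher and 1 lower, where 33.4% of all genes were called. The values of MPO and CAMP rest on at most 51 counts in each OCI-AML3 library. DEFA1B, DEFA3 and CEACAM8 have no readable line difference, because OCI-AML3 holds 0 counts. The call of LYZ (adjusted p = 0.0325) was lost in 5 of 12 fits that left out 1 library, that of ELANE (adjusted p = 0.014) in 2 and that of AZU1 (adjusted p = 0.0171) in 2, without OCI-AML3 VTP-50469 replicate 1 or 3 (adjusted p up to 0.0735). For CAMP, with 17, 4 and 0 counts in the OCI-AML3 libraries, these fits gave 1.80 to 4.29, the farthest from the full fit being that without OCI-AML3 VTP-50469 replicate 1.

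For the combination at day 6 the difference was positive for CAMP (3.67 ± 0.79), MPO (2.33 ± 0.55), CTSG (0.85 ± 0.26) and ELANE (0.62 ± 0.24) and negative for LYZ (-1.79 ± 0.16, adjusted p = 5.29e-12), 4 genes and 1 where 34.9% of all genes were called. The difference for CAMP rests on 11, 0 and 0 counts in the OCI-AML3 libraries and was 3.03 to 8.79 when 1 library was left out, highest without combination replicate 1. The call of ELANE (adjusted p = 0.043) was lost in 11 of 12 fits that left out 1 library. For the step from VTP-50469 to the combination at day 6 it was negative for LYZ (-1.37 ± 0.15, adjusted p = 1.55e-08) and CTSG (-0.77 ± 0.26, adjusted p = 0.0345), 0 genes higher and 2 lower where 20.6% of all genes were called. The call of CTSG was lost in 7 of 12 fits. LYZ was thus the gene whose fold change was larger in OCI-AML3 in all 3 of these differences, from a lower starting level.

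Other genes of the granule programme were counted in lists. In NOMO1 at day 6 of VTP-50469, 13 of 17 azurophil granule partners tested were higher and 1 lower, with a median log2 fold change of 0.72 beside -0.01 over all genes, of which 48.8% were called; that share applies to each list of this comparison. Among the smallest adjusted p-values were those of FUCA1 (1.97 ± 0.07), a lysosomal fucosidase, PLBD1 (2.75 ± 0.13) and MS4A3 (4.45 ± 0.24), a membrane protein of granulocyte progenitors. Of 9 proteinase inhibitors 8 were higher and 1 lower. They include SERPINA1 (3.46 ± 0.13), which inhibits neutrophil elastase outside the cell, and SERPINB1 (0.80 ± 0.08), which inhibits it inside.

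Of 14 specific granule genes 11 could be tested in NOMO1, and 7 were higher and 1 lower with VTP-50469 at day 6 (median 1.48). Among them were TCN1 (4.31 ± 0.27), a vitamin B12 carrier, and CHI3L1 (1.48 ± 0.11), a chitinase-like protein. LTF, named after its values were seen, encodes the abundant specific granule protein lactoferrin and stayed at or below 0.508 CPM in every library. CEACAM8 was thus high where LTF was close to 0. Of 8 gelatinase granule genes 7 were higher and 0 lower (median 1.74), with FCN1 at 1.96 ± 0.09 and MMP9 at 3.25 ± 0.14. Of 8 genes of secretory vesicles and the neutrophil surface 8 were higher (median 2.80), among them CD177 (1.26 ± 0.06), the chemokine receptor CXCR2 (1.02 ± 0.09) and the G-CSF receptor CSF3R (0.55 ± 0.06).

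With both drugs at day 6 in NOMO1, 15 of 17 azurophil partners were higher and 1 lower, 8 of 11 specific granule genes higher and 2 lower, and 7 of 8 gelatinase granule genes higher and 1 lower, where 55.4% of all genes were called. Against VTP-50469 alone 12 azurophil partners were higher and 0 lower, while 0 gelatinase granule genes were higher and 2 lower, where 27.6% of all genes were called. Those lower were MMP9 (-1.59 ± 0.13) and HPSE (-2.35 ± 0.20). Of 11 specific granule genes 2 were higher and 2 lower, with TCN1 at -2.81 ± 0.25 and HP, which encodes haptoglobin, at 2.64 ± 0.31. MMP9, which degrades gelatin, stood at 931 to 1048 CPM with VTP-50469 and at 307 to 348 CPM with both drugs. CEACAM8 and CAMP, in contrast, rose in that step. DEFA4, another azurophil alpha defensin named after its values were seen, stood at 597, 548 and 578 CPM in untreated NOMO1 at day 6 and at 1308, 1252 and 1219 CPM with both drugs (1.13 ± 0.41, adjusted p = 0.0298), and at 0 in OCI-AML3.

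In OCI-AML3 at day 6 of VTP-50469, 7 of 15 azurophil partners were higher and 3 lower, where 34.7% of all genes were called. Among them were CST7 (1.65 ± 0.13), a cystatin, CTSC (0.82 ± 0.08), the protease that activates elastase, proteinase 3 and cathepsin G, and SRGN (-1.17 ± 0.11), the proteoglycan that packs them. With both drugs 10 were higher and 1 lower, where 49.6% of all genes were called, among them FUCA1 (5.93 ± 0.36). With selumetinib alone 11 were higher and 1 lower, where 27.4% were called. Of 7 specific granule genes tested, 6 were higher and 1 lower with VTP-50469 at day 6 (median 3.95). HP, 1 of those higher, stood at 0 to 0.0576 CPM in DMSO day 6 and passed the filter through treated groups. The counts of this list in OCI-AML3 and its median are therefore a description only. TCN1 stood at 2.42, 2.77 and 2.03 CPM in DMSO day 6 and at 15.9, 17.9 and 16.9 CPM with VTP-50469 (2.81 ± 0.36), without overlap, and CHI3L1 was lower (-3.16 ± 0.53). With both drugs 2 of these were higher and 2 lower, and TCN1 stood at 3.27, 0.900 and 2.28 CPM (-0.16 ± 0.38, adjusted p = 0.757). Of 8 proteinase inhibitors 3 were higher and 3 lower with VTP-50469, with SERPINA1 at 1.42 ± 0.19 and SERPINB1 at -0.49 ± 0.09. CFD, a complement serine protease encoded next to ELANE, stood at 355, 348 and 405 CPM in DMSO day 6, at 1164, 1256 and 1144 CPM with VTP-50469 and at 2149, 2085 and 2389.6 CPM with both drugs. It rose by 1.69 ± 0.18 and by 2.58 ± 0.18, while ELANE did not pass with VTP-50469 and PRTN3 fell.

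Of 11 transcription factors of granulopoiesis, 8 were lower and 1 higher in OCI-AML3 at day 6 of VTP-50469, where 34.7% of all genes were called, with CEBPA at -1.40 ± 0.13, CEBPB at -1.65 ± 0.15, MYB at -0.74 ± 0.08 and GFI1 at -0.83 ± 0.10. In NOMO1 9 were higher and 1 lower, where 48.8% were called, with CEBPB at 1.95 ± 0.13, SPI1, which encodes PU.1, at 0.84 ± 0.07, CEBPE, which encodes C/EBP-epsilon, at 1.07 ± 0.11 and MYB at -0.48 ± 0.07. With both drugs at day 6 the counts were 3 higher and 3 lower in OCI-AML3 (49.6% of all genes called) and 9 higher and 2 lower in NOMO1 (55.4%). In NOMO1 CEBPE was then at 1.46 ± 0.11 and CEBPA at 0.98 ± 0.08. CEBPE averaged below 1 CPM in each OCI-AML3 group. The difference between lines (NOMO1 minus OCI-AML3) was called higher for 7 and lower for 0 of the 11 with VTP-50469, where 33.4% of all genes were called, and for 6 and 0 with both drugs, where 34.9% were. For azurophil partners it was called higher for 8 and lower for 3 of 17 with VTP-50469, and for 9 and 3 with both drugs.

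Markers of other myeloid lineages moved together with the granule genes. The summed level of 10 eosinophil and basophil markers in NOMO1 was 1605 to 1727 CPM in DMSO day 6, 7409 to 7734 CPM with VTP-50469 and 8618 to 9945 CPM with both drugs. Its highest member, the eosinophil peroxidase EPX, averaged 851, 4450.2 and 6043 CPM, and MS4A2 and HDC were at 0 in that DMSO group. The 6 monocyte markers summed to 28.4 to 32.6, 968 to 1113 and 622 to 815 CPM, with none at 0 and 2, 6 and 6 of them above 5 CPM. In OCI-AML3 the monocyte sum was 66.5 to 88.6 CPM in DMSO day 6 and 249 to 266 CPM with both drugs, of which VCAN averaged 222. The eosinophil and basophil sum there was 91.9 to 94.2 and 332 to 385 CPM, of which RNASE2 averaged 315. PRG3, CLC and CPA3 were at 0 in both groups. LYZ is also a monocyte gene; the part of these lineages in the results was not tested, and in bulk RNA more cells of a type and more RNA per cell cannot be told apart.

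**Figure D4:**
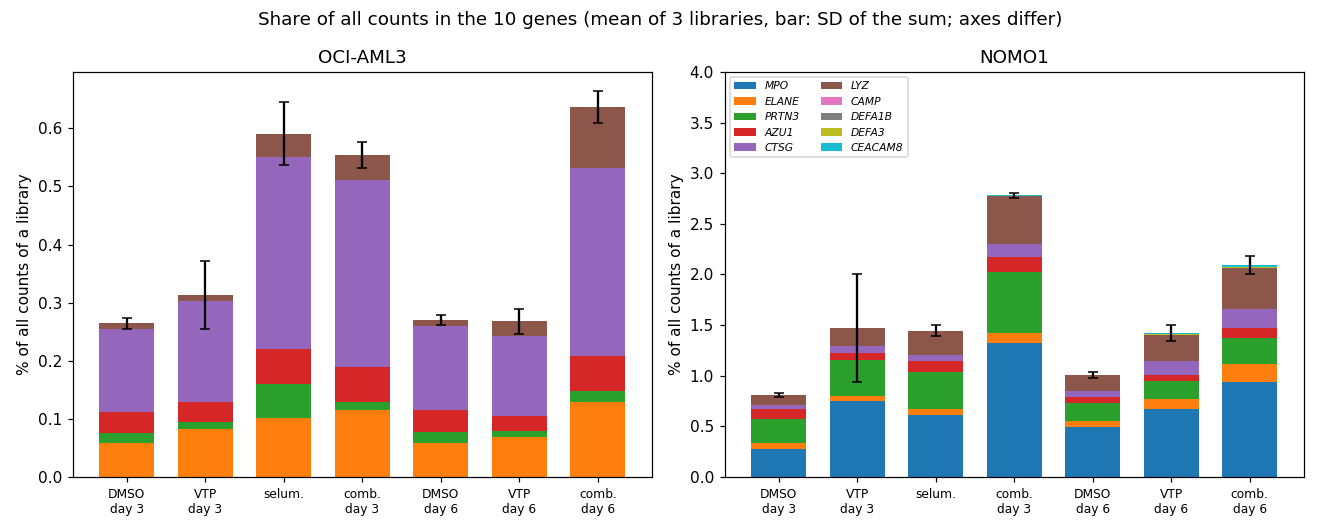
Share of all counts of a library taken by each of the 10 genes (percent), as stacked means of 3 libraries by treatment group. Error bars are the SD of the sum, and the axes of both lines start at 0 and differ in scale. The NOMO1 combination at day 3 has the highest sum, 2.78%, and OCI-AML3 DMSO day 3 the lowest, 0.265%.

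Together the 10 genes took 0.265% ± 0.00953 (SD, n = 3) of the counts in OCI-AML3 DMSO day 3 and 0.270% ± 0.00889 in DMSO day 6. The share was 0.268% ± 0.0212 with VTP-50469 at day 6 and 0.636% ± 0.0277 with both drugs, where CTSG alone made up 0.324% and ELANE 0.129%. In NOMO1 the share was 0.807% ± 0.0212 in DMSO day 3 and 1.00% ± 0.0309 in DMSO day 6. It stood at 1.43% ± 0.0800 with VTP-50469 at day 6, at 2.10% ± 0.0880 with both drugs at day 6 and at 2.78% ± 0.0230 with both drugs at day 3. MPO (1.32%), PRTN3 (0.598%) and LYZ (0.481%) made up most of that last value, so the sum says little about CAMP, CEACAM8 and the defensins.

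Over the 21 libraries of a line, which share groups and scaling, Pearson's r of log2(CPM + 1) is given as a description. In NOMO1 it was 0.973 for DEFA3 and CEACAM8, 0.933 for MPO and LYZ, 0.912 for ELANE and CTSG and 0.833 for the neighbours PRTN3 and AZU1, but 0.095 for the neighbours PRTN3 and ELANE. In OCI-AML3 it was 0.919 for AZU1 and CTSG, 0.918 for ELANE and CTSG and 0.33 for ELANE and PRTN3. Of 11337 genes searched in NOMO1 the closest in pattern were OSCAR for CEACAM8 (0.988), NRBP1 for DEFA3 (0.984), NECTIN1 for MPO (0.967), NUCB2 for CTSG (0.967), OTULINL for LYZ (0.962) and SMARCD3 for CAMP (0.949). ZNF652 was closest to ELANE (0.957), NEO1 to AZU1 (0.917) and SUCO to PRTN3 (0.903). CEBPE was the third closest to CAMP (0.938). Of 11096 genes searched in OCI-AML3 they were MDM2 for LYZ (0.977), GIHCG for CTSG (0.977), CXCR4 for AZU1 (0.974), B4GALT5 for ELANE (0.959) and P4HB for PRTN3 (0.922).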

How the data were processed

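Raw read counts per gene of 42 RNA libraries were deposited by the authors as 1 table, made with STAR and featureCounts (Subread 2.0.6) on hg38 after FastQC 0.11.9 and MultiQC 1.14, per the submitters' processing notes. Those notes also name DESeq2 1.44.0, and the file header names the gene annotation. The kit was unstranded, per the labels' protocols. Of 58870 lines, 1 holds an empty cell and was dropped, and 3 columns that match no sample here were not used. Their names give selumetinib at day 6 in OCI-AML3, and they equal the OCI-AML3 selumetinib columns in all 58870 lines. Sample titles give the number of the menin inhibitor as 50649, unlike the name used here, which is that of the series' design text.

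Counts were tested in R 4.3.3 with edgeR 4.0.16 (filterByExpr, TMM factors, robust quasi-likelihood fit over the group means of all 21 libraries of a line or of all 42, limma 3.58.1), with Benjamini-Hochberg adjustment over all genes tested and a threshold of 0.05. Levels are CPM on TMM-scaled totals, except those of the cell type markers, which are CPM on library totals without TMM factors. The SE is the fold change divided by the square root of the F statistic. The procedure was tested on simulated data. Alternatives were RLE factors, library totals, other filters, DESeq2 1.42.0, only the groups compared, mitochondrial genes left out, DMSO day 6 as control, a replicate block and leaving out each library. Same-numbered libraries did not deviate together (correlations of -0.126 to 0.0827 in OCI-AML3 and -0.132 to 0.0968 in NOMO1), so numbers were not taken as pairs.

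The 10 genes, the lists and the markers were chosen with earlier results of these data known. Of the 10, every gene called in a comparison is named there, while some that did not pass are not. Of a list up to 4 called genes with the smallest adjusted p are named, unless said otherwise.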

Additional observations from a re-analysis of the deposited data

Results flagged for a closer look

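The response to the drugs differed between the lines by a test of the difference itself (NOMO1 minus OCI-AML3, log2, edgeR's quasi-likelihood test over all genes). For VTP-50469 at day 6 the difference was 2.23 for MPO, 0.75 for ELANE, 1.13 for PRTN3, 0.74 for AZU1, 1.62 for CTSG, -0.42 for LYZ and 2.54 for CAMP. For the combination at day 6 it was 2.33 for MPO, 0.62 for ELANE, 0.85 for CTSG, -1.79 for LYZ and 3.67 for CAMP. For the step from VTP-50469 to the combination it was -0.77 for CTSG and -1.37 for LYZ. MPO and CAMP rest on few counts in OCI-AML3. In 12 fits that each left out 1 library, the call of ELANE for the combination was lost in 11 and that of CTSG for the step in 7. For VTP-50469 the call of LYZ was lost in 5 and those of ELANE and AZU1 in 2 each.

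In other pairs of comparisons every library of one lay above all of its controls and every library of the other below all of its own; these differences were not tested, and not every side passed its own test. Between days of VTP-50469, LYZ in OCI-AML3 was at -0.15 (adjusted p = 0.507) at day 3 and 1.23 at day 6, and ELANE in NOMO1 at -0.79 and 0.92. Between the lines at day 3 of VTP-50469, MPO was at -0.49 (adjusted p = 0.788, at 20, 19 and 22 counts) in OCI-AML3 and 1.10 in NOMO1, and LYZ at -0.15 and 0.59. With selumetinib ELANE was at 0.72 in OCI-AML3 and -0.57 in NOMO1, and AZU1 at 0.64 and -0.20 (adjusted p = 0.422). With the combination at day 3 PRTN3 was at -0.32 (adjusted p = 0.101) in OCI-AML3 and 1.07 in NOMO1. The NOMO1 values of day 3 and of selumetinib are against DMSO day 3, the group with 17.8% mitochondrial counts, and AZU1 with selumetinib turned to 0.85 against DMSO day 6.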

How the results depend on the processing

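Of 2866 values of single genes under an alternative, 2714 kept their direction and side of the threshold or were called in neither fit, 70 lost a call, 79 gained one and 3 turned with a call; 43 changed sign without a call in either fit. The 3 that turned did so with DMSO day 6 as the control in NOMO1: AZU1 at day 3 of VTP-50469 (0.26) and AZU1 (0.85) and CAMP (0.70) with selumetinib. That control also changed the number of all genes called in NOMO1 from 8680 to 4499 for VTP-50469 day 3, from 8957 to 5328 for selumetinib (2177 higher and 3151 lower) and from 6134 to 2298 for the interaction (1310 higher and 988 lower). The cause was not tested.

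The number of the 10 genes called for OCI-AML3 VTP-50469 day 3, 0 as reported, was 2 with DESeq2, with DMSO day 6, with a minimum of 1 CPM in 3 libraries or with library totals, and 1 with no filter or with only the groups compared. With only the groups compared it was 5 for OCI-AML3 VTP-50469 day 6, 5 for NOMO1 selumetinib and 4 for the line difference of the step to the combination, also 4 with no filter. The OCI-AML3 interaction had 2 with no filter and the NOMO1 interaction 5 with DESeq2. Between DMSO days in OCI-AML3, DESeq2 and no filter each called 1 gene of all.

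Leaving out 1 library gave 980 to 1892 genes for OCI-AML3 VTP-50469 day 3 (980 without its replicate 2 and 1152 without DMSO replicate 1) with 0 to 2 of the 10 called, 959 to 1805 for the OCI-AML3 interaction (959 without selumetinib replicate 1) with 1 to 3 of the 10, 0 to 1 gene between DMSO days in OCI-AML3, 3 to 5 of the 10 for the NOMO1 interaction (5 without VTP-50469 day 3 replicate 3) and 1 to 2 for the line difference of the step to the combination.

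Library totals in place of TMM moved the median of all genes by construction: to 0.39 for NOMO1 VTP-50469 day 3 (7394 higher and 2033 lower, against 4922 and 3758), 0.39 for selumetinib (7353 and 2296 against 4787 and 4170), 0.33 for the combination day 3 (6946 and 3036 against 5158 and 4561), 0.37 between DMSO days (7177 and 1917 against 4762 and 3685) and -0.46 for the interaction (1055 and 6530 against 2541 and 3593). In the fits of both lines it went to -0.25 for DMSO day 6 (4830 and 6959 against 6124 and 5343), -0.14 for the VTP-50469 difference (2394 and 4140 against 3098 and 3144) and -0.14 for the combination difference (2652 and 3978 against 3477 and 3054). In OCI-AML3 the splits became 1351 and 550 for VTP-50469 day 3 (1064 and 724), 2345 and 2058 for selumetinib (1920 and 2562) and 4617 and 3351 for the combination day 3 (3652 and 4224). With these totals ELANE lost its call with selumetinib in NOMO1 (-0.19, adjusted p = 0.392), as did AZU1 at day 3 of VTP-50469 (-0.46, adjusted p = 0.0725) and LYZ in the interaction (0.12, adjusted p = 0.532).

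A replicate block changed 2 calls, PRTN3 between DMSO days in NOMO1 (-0.68, adjusted p = 0.0541) and ELANE in the line difference of the combination (0.62, adjusted p = 0.052), and left 4 of the 10 genes called in each; it changed no other call of the 10. With mitochondrial genes left out, 183 values of single genes kept their call or lack of one. The call of ELANE in the line difference of the combination was lost (0.55, adjusted p = 0.073, edgeR's quasi-likelihood test). Depth limits MPO and CAMP in OCI-AML3 and DEFA1B and DEFA3 in untreated NOMO1.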
